A study of Mus musculus with 12 samples.

Results

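Nitric oxide made in macula densa cells is one of the signals by which the kidney sets glomerular blood flow and renin release, and 10 genes of its pathway are described here across 4 groups of sorted mouse kidney cells. The genes were taken by symbol from the deposited table and all 10 were found among its 23378 genes: the synthases Nos1, Nos2 and Nos3, the adaptor Nos1ap, the cyclase subunits Gucy1a1 and Gucy1b1, the enzymes Ddah1 and Arg2, and the kinases Prkg1 and Prkg2. In this pathway a synthase makes nitric oxide from arginine. The gas diffuses to soluble guanylyl cyclase, a dimer of an alpha and a beta subunit, which makes cyclic GMP, and cyclic GMP acts through protein kinases and ion channels until phosphodiesterases break it down. Macula densa cells are salt-sensing tubule cells found where the thick ascending limb meets its own glomerulus and are known for expressing the neuronal synthase Nos1, whereas the smooth muscle, mesangial and renin cells next to them are the classical receivers of the signal.

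The data were RNA sequencing counts from 12 libraries of cells sorted from kidney cortex of C57BL/6 mice. All mice carried the genetic model named nNosCreERT2-mTmG in the labels, in which a tamoxifen-inducible Cre recombinase driven by Nos1 turns a membrane reporter from red tdTomato to green GFP. Sorting took green cells for macula densa. Control cells were those with the most intense red, which the submitters chose to represent distal tubule and collecting duct epithelium. For 14 days the mice received either control diet or a low salt diet together with enalapril, an inhibitor of angiotensin-converting enzyme, in their water (150 mg per litre), called low salt with enalapril below, so that salt restriction and the drug cannot be told apart. There were 2 macula densa libraries on each diet and 4 control-cell libraries on each diet. Nothing in the labels says that each library came from a separate animal, so p-values measure the spread between these libraries, which may in part be technical. Age and sex of the mice are not given in the sources used here. Because Nos1 drove the recombinase behind the sort, its level in green against red cells checks the labels and is no finding.

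The libraries held 4259028 to 14856548 counts, of which the ribosomal-RNA-like gene Gm42418 took 53.5% to 65.0%, and nuclear protein-coding genes held 781257 to 2331482. Expression is given as CPM, counts scaled to the library total, itself adjusted by trimmed means of M values (TMM), and 3 counts, the floor used here, equalled 0.231 to 0.734 CPM. Floors and counting intervals cover counting error only. Marker lists placed the green cells with the macula densa and thick ascending limb: 6 macula densa markers, Nos1 included, summed to 2250 to 3140 CPM there and to 57.3 to 478 CPM in control cells. The control cells went in part against their label. Their 6 podocyte markers summed to 42.4 to 1280 CPM on control diet and 129 to 1030 on low salt with enalapril, and their 8 endothelial markers to 44.2 to 1290 and 229 to 1050 CPM, while 7 collecting duct principal cell markers summed to 102 to 809 CPM over both diets. Over both diets they also held sums of 212 to 1650 CPM for thick ascending limb, 102 to 821 for distal convoluted and connecting tubule, and 21.8 to 350 for intercalated cells. The same sums in macula densa libraries were 2510 to 4400, 294 to 544 and 17.1 to 31.5 CPM, in that order. Markers of distal convoluted and connecting tubule thus did not set the control cells apart. In macula densa libraries the podocyte sum was 18.4 to 146 CPM, the endothelial sum 10.2 to 145 CPM with Plvap at 0 in both low salt with enalapril libraries, and the principal cell sum 10.7 to 36.0 CPM. Control-cell replicate 4 on control diet stood apart, with an endothelial sum of 44.2 CPM against 694 to 1290 in the other 3 libraries of its group. It held the highest sums of its group for thick ascending limb (1650 CPM), distal convoluted and connecting tubule (821 CPM), principal cells (809 CPM) and intercalated cells (350 CPM). Results that rest on it are given with and without it, and leaving it out takes away the library richest in these tubule markers. Fewer cells of a type and less RNA per cell cannot be told apart in such pooled libraries.

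The 10 genes lie on 6 chromosomes of the mouse assembly GRCm38 in the GENCODE M21 annotation. Its intervals for these 10 genes matched the deposited ones once 1 was taken from each stop position, with the starts unchanged. Nos1 (chr5:117781032-117958840, plus strand), Nos3 (chr5:24364810-24384474, plus) and Prkg2 (chr5:98929773-99037351, minus) share chromosome 5. Gucy1a1 (chr3:82092427-82145789, minus) and Gucy1b1 (chr3:82032006-82074689, minus) are neighbours on the same strand, 17.7 kb apart, and Ddah1 (chr3:145758675-145894277, plus) is on the same chromosome. Nos2 lies at chr11:78920787-78960254 (plus), Nos1ap at chr1:170302668-170589861 (minus), Arg2 at chr12:79130777-79156301 (plus) and Prkg1 at chr19:30564489-31765033 (minus). Counts are per whole gene, so they do not say which exon, intron or UTR the reads came from.

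Promoter windows from RefSeq, running from 250 bases before to 50 bases after a transcript start on GRCm38.p6, were found for 6 of the 10 genes (Nos1, Nos1ap, Gucy1a1, Gucy1b1, Ddah1 and Prkg1). Nos1ap, Gucy1a1 and Prkg1 had 2 windows each. Shown here are Nos1, the gene behind the sort, and the neighbouring cyclase subunits, which are described together below. Capitals mark a GC box (GGGCGG, or CCGCCC on the other strand) or the core of the cAMP response element (TGACG, or CGTCA on the other strand), and these 2 motifs share no stretch here. The Nos1 window (chr5:117866589-117866888, plus strand) lies inside the annotated gene, at 1 of its internal start sites, and holds 1 cAMP response element core and no GC box.
Nos1: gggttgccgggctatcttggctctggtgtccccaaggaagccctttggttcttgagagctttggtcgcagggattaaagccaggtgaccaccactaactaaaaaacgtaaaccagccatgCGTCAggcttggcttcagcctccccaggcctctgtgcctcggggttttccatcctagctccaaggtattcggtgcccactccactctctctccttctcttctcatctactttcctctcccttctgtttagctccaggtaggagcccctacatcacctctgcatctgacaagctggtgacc
Gucy1a1: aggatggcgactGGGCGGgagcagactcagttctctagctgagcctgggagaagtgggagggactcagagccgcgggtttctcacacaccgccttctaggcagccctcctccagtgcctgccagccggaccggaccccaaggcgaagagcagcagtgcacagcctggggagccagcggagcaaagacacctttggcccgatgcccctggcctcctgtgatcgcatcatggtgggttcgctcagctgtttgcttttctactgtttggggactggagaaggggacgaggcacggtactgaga
Gucy1b1: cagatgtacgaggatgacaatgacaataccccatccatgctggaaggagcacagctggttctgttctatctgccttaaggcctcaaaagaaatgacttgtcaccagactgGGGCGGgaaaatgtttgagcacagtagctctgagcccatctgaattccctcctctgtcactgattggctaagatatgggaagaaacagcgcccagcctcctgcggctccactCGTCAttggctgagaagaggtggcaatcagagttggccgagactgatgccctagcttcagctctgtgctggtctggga
The Gucy1a1 window shown (chr3:82145601-82145900, minus strand) holds 1 GC box, its second window (chr3:82145024-82145323) holds neither motif, and the Gucy1b1 window (chr3:82074662-82074961, minus strand) holds 1 GC box and 1 cAMP response element core. Of 32817 promoter windows of the same length, 35.6% hold the GC box and 20.8% the cAMP response element core. A match describes the letters only, and no binding was measured in these libraries.

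Nos1, the neuronal synthase, was read in every library. On control diet the macula densa libraries held 100 and 111 CPM, and the 4 control-cell libraries 0.109, 0.470, 0.381 and 0.413 CPM. On low salt with enalapril they held 232 and 122 CPM against 0.615, 0.734, 0.420 and 0.407 CPM. No macula densa library came within 2 orders of magnitude of a control-cell library. The log2 fold change of macula densa over control cells was 8.19 (SE 0.38) on control diet and 8.33 (SE 0.38) on low salt with enalapril, which matches the label of the sort in all 12 libraries. The control-cell values rest on 1 to 8 counts per library, at or near the floor.

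Nos2, the inducible synthase best known from immune cells, went the other way. Control cells on control diet held 5.55, 4.32, 2.76 and 0.103 CPM and those on low salt with enalapril 0.846, 2.20, 0.420 and 6.51 CPM. Macula densa libraries held 1.33 and 0.163 CPM on control diet and no count in either library on low salt with enalapril. The groups overlapped on control diet and did not on low salt with enalapril, where the mean was at least 4.67-fold lower than in control cells, taking 3 counts per library as the limit, and at least 2.16-fold without control-cell replicate 4 on that diet. Nos2 passed the edgeR quasi-likelihood test only in the mean of both diets (adjusted p = 0.0479), not on control diet (log2 fold change -2.12, SE 1.31, adjusted p = 0.36) or low salt with enalapril alone (adjusted p = 0.127). That call was lost with scaling by library totals alone (adjusted p = 0.0567) and without any single library other than control-cell replicates 1 and 3 on low salt with enalapril and 4 on control diet (adjusted p up to 0.141), and it held without control-cell replicate 4 on control diet (adjusted p = 0.011).

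Nos3, the endothelial synthase, was the synthase with the highest level per length in control cells. In CPM they held 15.8, 9.96, 8.96 and 1.55 CPM on control diet and 3.77, 5.62, 2.31 and 7.12 CPM on low salt with enalapril. Macula densa libraries held 4.52 and 0.815 CPM on control diet and again no count on low salt with enalapril, against 153 counts over the 4 control-cell libraries. The groups did not overlap on that diet, and the level was at least 8.82-fold lower than in control cells (edgeR adjusted p = 0.0379). That call was lost without either macula densa library on that diet (adjusted p = 0.109 and 0.189) and without control-cell replicates 1, 2 or 4 on that diet or 3 on control diet (adjusted p from 0.0557 to 0.068). In the mean of both diets the adjusted p was 0.00955. The log2 fold change on control diet was -1.78 (SE 0.84, adjusted p = 0.222), and it was -2.15 (SE 0.63, adjusted p = 0.0383) without control-cell replicate 4.

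Nos3 and Nos2 moved from library to library with the endothelial markers. In control cells on control diet the 8 endothelial genes summed to 1290, 1040, 694 and 44.2 CPM, in the same order as Nos3 from high to low. On low salt with enalapril they summed to 304, 761, 229 and 1050 CPM, and Nos3 had the same order there too. Nos2 shared both orders. In macula densa cells the sums were 145 and 20.3 CPM on control diet and 12.5 and 10.2 CPM on low salt with enalapril. Of the 8 endothelial genes, all 8 passed the test as lower in macula densa cells in the mean of both diets. Leukocyte markers summed to 2.12 to 7.29 CPM in macula densa libraries on control diet, 2.30 to 4.60 on low salt with enalapril, and 2.10 to 121 CPM over the control-cell libraries. The part of endothelial and leukocyte RNA in the results on Nos2 and Nos3 was not tested.

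Per kilobase of joined exons, which allows levels of different genes to be set side by side, Nos1 made up 86.6% and 97.7% of the 3 synthases in the macula densa libraries on control diet and 100% in both on low salt with enalapril. The 3 synthases together reached 10.3 ± 0.164 CPM per kb (SD, n = 2) and 15.9 ± 7.03 (SD, n = 2). In control cells Nos3 took 77.0% ± 6.65 (SD, n = 4) on control diet and 70.9% ± 12.5 (SD, n = 4) on low salt with enalapril, Nos2 20.2% ± 10.2 and 25.5% ± 14.4, and Nos1 2.78% ± 3.85 and 3.69% ± 1.90. Their synthase totals were 2.95 ± 1.93 and 1.75 ± 1.11 CPM per kb (SD, n = 4 each). The order of the synthases was thus Nos1, Nos3, Nos2 in the macula densa on control diet, where the last 2 did not differ beyond their spread. In control cells it was Nos3, Nos2, Nos1, and on low salt with enalapril the SDs of Nos3 (1.14 ± 0.510 CPM per kb) and Nos2 (0.565 ± 0.631) overlapped.

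**Figure D1:**
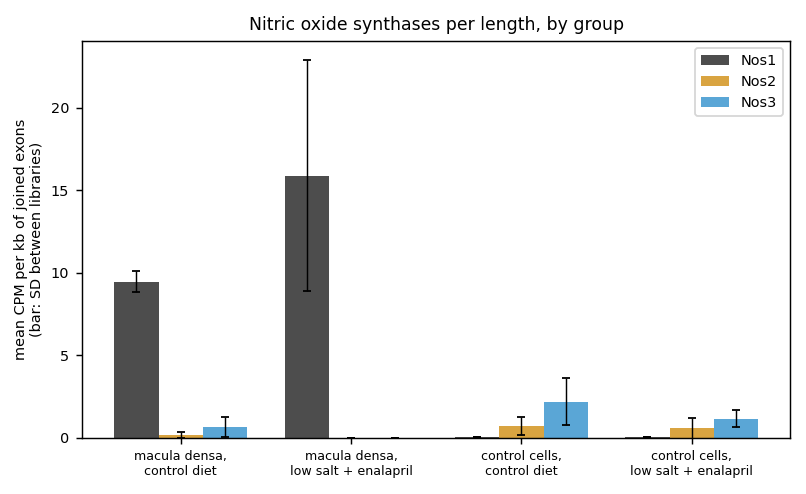
Mean level of the 3 nitric oxide synthases in CPM per kilobase of joined exons (y axis, from 0) in each group (x axis), with error bars for the SD between libraries (n = 2 for macula densa groups, n = 4 for control-cell groups). Nos1 reached 9.47 and 15.9 CPM per kb in macula densa cells and stayed at or under 0.0488 in control cells, whose tallest bar is Nos3 at 2.19 and 1.14.

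Nos1ap encodes an adaptor that binds the PDZ domain of the neuronal synthase. Its level stayed between 9.81 and 17.5 CPM in all 12 libraries. Macula densa cells held 17.5 and 12.6 CPM on control diet and 10.7 and 12.1 CPM on low salt with enalapril. Control cells held 13.4, 12.6, 9.81 and 12.6 CPM on control diet and 11.5, 11.2, 11.1 and 10.1 CPM on low salt with enalapril. The groups overlapped in both cell comparisons, and the mean of both diets gave a log2 fold change of 0.19 (SE 0.15, edgeR adjusted p = 0.413). Nos1ap shares exons on the same strand with the gene model Gm7694 (790 counts over all libraries), so reads between these genes may have been split.

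Gucy1a1 and Gucy1b1 encode the alpha and beta subunits of soluble guanylyl cyclase, the receptor for nitric oxide, and both were lower in macula densa cells. Gucy1a1 stood at 7.95, 13.9, 4.76 and 1.34 CPM in control cells on control diet and at 1.23, 5.87, 3.15 and 3.77 CPM on low salt with enalapril. The macula densa libraries held 1.85 and 0.0815 CPM on control diet, the latter a single count, and none on low salt with enalapril. Its groups overlapped on control diet only. The level on low salt with enalapril was at least 6.56-fold lower than in control cells, and the test passed in the mean of both diets (edgeR adjusted p = 0.0126) but not on control diet (log2 fold change -2.90, SE 1.08, adjusted p = 0.127) or low salt with enalapril alone (adjusted p = 0.0722). The call in the mean was lost without macula densa replicate 2 on low salt with enalapril (adjusted p = 0.0554). Without control-cell replicate 4 on control diet both passed (adjusted p = 0.03 and 0.0309).

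Gucy1b1 had the same order of groups at lower counts. Control cells held 1.85, 5.17, 2.38 and 1.14 CPM on control diet and 1.54, 3.67, 1.26 and 2.44 CPM on low salt with enalapril. Macula densa cells held 1.44 and 0.163 CPM on control diet and 0 and 0.328 CPM on low salt with enalapril, the last being 2 counts. The summed counts on low salt with enalapril were 11.6-fold lower than in control cells, with a 95% counting interval of 3.09 to 97.8, and 6.25-fold lower without macula densa replicate 1 on that diet. Without replicate 2, the only library with counts, the level was at least 3.87-fold lower. In the mean of both diets the log2 fold change was -2.65 (SE 0.74, edgeR adjusted p = 0.0248), while control diet (-1.75, SE 0.86, adjusted p = 0.238) and low salt with enalapril (adjusted p = 0.0909) did not pass alone. The call was lost without macula densa replicate 1 on low salt with enalapril (adjusted p = 0.0784) or replicate 2 on control diet (adjusted p = 0.0696).

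Per kilobase, the ratio of Gucy1a1 to Gucy1b1 ran from 0.451 to 2.42 over the 8 control-cell libraries and was 0.725 and 0.282 in the macula densa libraries on control diet, the last from 1 and 2 counts. Markers of fibroblasts and mesangium, cell types known for this cyclase, summed to 74.6, 147, 63.8 and 39.4 CPM in control cells on control diet and 73.3, 57.7, 29.6 and 49.0 CPM on low salt with enalapril. In macula densa cells they summed to 27.1 and 5.13 CPM, then 4.99 and 4.10 CPM. The highest library was the same for these 8 genes and for both subunits, control-cell replicate 2 on control diet, and Gucy1a1 had the full order of these sums in control cells on that diet. But control-cell replicate 1 on low salt with enalapril had the highest sum of its group (73.3 CPM) and the lowest Gucy1a1 level (1.23 CPM). On low salt with enalapril Gucy1a1 had the order of the podocyte sums (129, 1030, 210 and 874 CPM) and of the smooth muscle and renin cell sums (150, 592, 298 and 375 CPM), and it shared neither order on control diet. Of the 7 of these genes that were tested, 5 passed as lower in macula densa cells in the mean of both diets, as did 5 of 6 podocyte genes and 5 of 6 smooth muscle and renin cell genes. The part of these lists in the results on the cyclase was not tested.

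**Figure D2:**
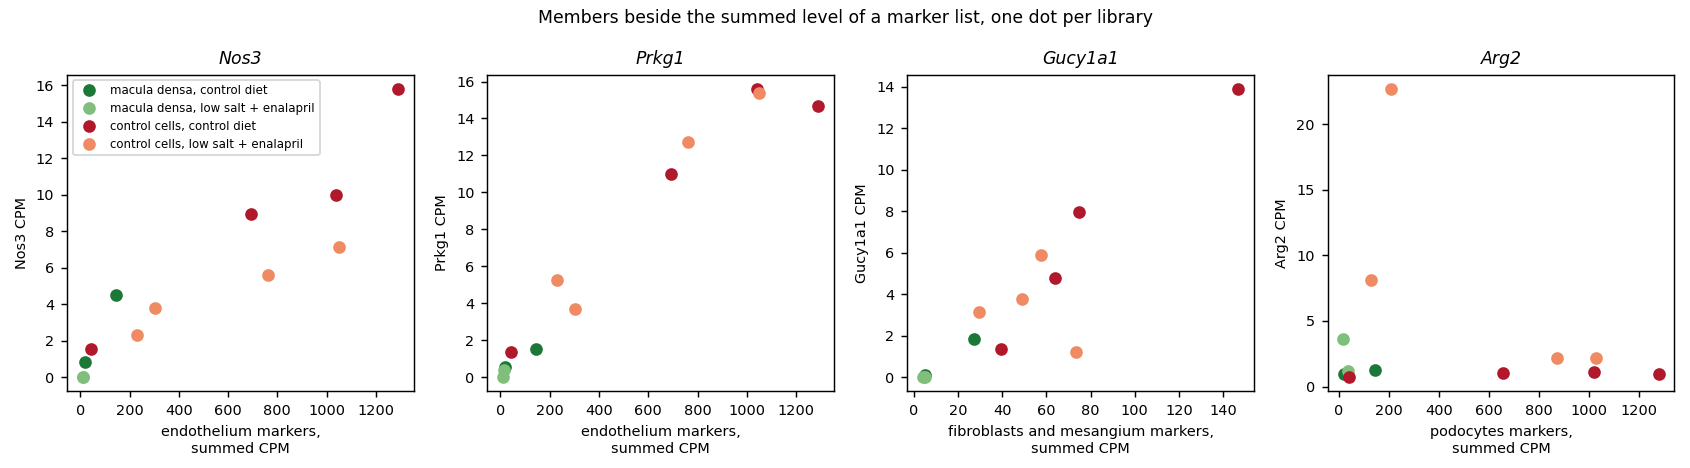
Level of Nos3, Prkg1, Gucy1a1 and Arg2 in CPM (y axes) against the summed CPM of a marker list (x axes: endothelium for the first 2 panels, fibroblasts and mesangium for the third, podocytes for the fourth), with 1 dot per library coloured by group. Nos3 is highest (15.8 CPM) where the endothelial sum is highest (1290 CPM), Prkg1 stands at 1.54 CPM or less in the 5 libraries with an endothelial sum of 145 CPM or less, Gucy1a1 stands at 1.23 CPM in 1 control-cell library with a fibroblast and mesangium sum of 73.3 CPM, and the highest Arg2 library (22.7 CPM) has a podocyte sum of 210 CPM.

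Ddah1 and Arg2 act on the supply side. Ddah1 breaks down asymmetric dimethylarginine, an inhibitor of the synthases. It stood at 3.18 and 2.44 CPM in macula densa cells on control diet and 0.959 and 4.92 CPM on low salt with enalapril. Control cells held 2.51, 3.85, 2.76 and 4.75 CPM, then 4.38, 3.42, 1.89 and 2.24 CPM. All 4 groups overlapped, and the log2 fold change in the mean of both diets was -0.16 (SE 0.38, edgeR adjusted p = 0.807). The 2 macula densa libraries on low salt with enalapril lay far apart (2.94 ± 2.80 CPM, SD), and with single libraries left out the log2 fold change on that diet ran from -1.68 to 0.64.

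Arg2, the mitochondrial arginase, draws on the same arginine as the synthases. Control cells on control diet held 0.980, 1.13, 1.05 and 0.724 CPM, and macula densa cells on that diet 1.23 and 0.978 CPM. On low salt with enalapril the control-cell libraries held 8.15, 2.20, 22.7 and 2.14 CPM, and the macula densa libraries 1.15 and 3.61 CPM. No control-cell library on low salt with enalapril was as low as any on control diet, and replicates 1 and 3 were the high ones. The cell populations did not differ by the test (log2 fold change 0.18, SE 0.91, adjusted p = 0.933 on control diet; -1.84, SE 0.88, adjusted p = 0.213 on low salt with enalapril; edgeR). Arg2 overlaps Vti1b on the opposite strand, and no source used here says whether counting kept the strands apart. Vti1b held 19.8, 14.2, 11.6 and 13.9 CPM in the same 4 libraries and so did not share the order of Arg2.

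Prkg1 and Prkg2 encode the kinases that cyclic GMP activates, and both were lower in macula densa cells in the mean of both diets. Prkg1, the type I kinase of smooth muscle and mesangium, held 14.7, 15.6, 11 and 1.34 CPM in control cells on control diet and 3.69, 12.7, 5.25 and 15.4 CPM on low salt with enalapril. Macula densa cells held 1.54 and 0.570 CPM, then 0.384 and 0 CPM, the last pair being 2 counts in all. Only control-cell replicate 4 on control diet came down to the level of the macula densa libraries. The summed counts on low salt with enalapril were 49.3-fold lower than in control cells (95% counting interval 13.5 to 409, edgeR adjusted p = 0.0337). They were 22.7-fold lower without macula densa replicate 2 and 32.3-fold lower without control-cell replicate 4 on that diet, and at least 18.8-fold lower without macula densa replicate 1, which held both counts. That call was lost without either macula densa library on that diet (adjusted p = 0.0845 and 0.207) and without control-cell replicates 2 or 4 on that diet or 3 on control diet (adjusted p from 0.0519 to 0.0617). In the mean of both diets the log2 fold change was -4.47 (SE 0.85, adjusted p = 0.00381), the smallest adjusted p among the members that were lower in macula densa cells. The value was -3.35 on control diet (SE 0.98, adjusted p = 0.061), and -3.73 (SE 0.70, adjusted p = 0.00444) without that replicate 4.

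The 4 libraries with an endothelial sum of 761 CPM or more held 12.7 to 15.6 CPM of Prkg1, and control-cell replicate 4 on control diet, with a sum of 44.2 CPM, held 1.34 CPM. The order within groups was close to that of the endothelial sums without being the same, since Prkg1 was higher in replicate 2 than 1 on control diet and in replicate 3 than 1 on low salt with enalapril. Markers of smooth muscle and renin cells, the cells Prkg1 is best known from, summed to 161, 123, 191 and 146 CPM in control cells on control diet and 150, 592, 298 and 375 CPM on low salt with enalapril, and to 22.0 to 42.7 CPM in the macula densa libraries. The order of Prkg1 on that diet differed from that of these sums, and from that of the podocyte sums, only in replicates 2 and 4. Of those 6 genes, 5 passed as lower in macula densa cells in the mean of both diets. The fibroblast and mesangium sums in control cells had the order of Prkg1 on control diet (74.6, 147, 63.8 and 39.4 CPM). They did not have it on low salt with enalapril (73.3, 57.7, 29.6 and 49.0 CPM). The part of these lists in the result on Prkg1 was not tested.

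Prkg2, the membrane-bound type II kinase of epithelia, showed another order. Control cells held 0.980, 0.658, 1.71 and 1.96 CPM on control diet and 1.61, 3.67, 1.05 and 1.42 CPM on low salt with enalapril. Macula densa cells held 0 and 0.0815 CPM on control diet, 1 count in all, and 0.384 and 1.31 CPM on low salt with enalapril, 10 counts in all. The groups did not overlap on control diet, where the summed counts were 29.2-fold lower in macula densa cells (95% counting interval 5.01 to 1170, edgeR adjusted p = 0.0281) and 16.3-fold lower without replicate 1, or at least 4.32-fold lower without replicate 2, which held the single count. The groups overlapped on low salt with enalapril (log2 fold change -1.12, SE 0.77, adjusted p = 0.397). In the mean of both diets the log2 fold change was -2.81 (SE 0.67, adjusted p = 0.0115). The call on control diet was lost without either macula densa library on that diet (adjusted p = 0.157 and 0.159) or without control-cell replicate 3 (adjusted p = 0.0641), and with only the groups compared in the fit (adjusted p = 0.0648). The test of whether the gap differed between the diets did not pass (3.39, SE 1.32, adjusted p = 0.688). Control-cell replicate 4 on control diet, which was the lowest of its group for Nos2, Nos3, Gucy1a1, Gucy1b1 and Prkg1, held the highest Prkg2 level of its group. Together the kinases reached 0.105 ± 0.0524 and 0.176 ± 0.0974 CPM per kb (SD, n = 2 each) in macula densa cells and 1.23 ± 0.503 and 1.21 ± 0.643 (SD, n = 4 each) in control cells.

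**Figure D3:**
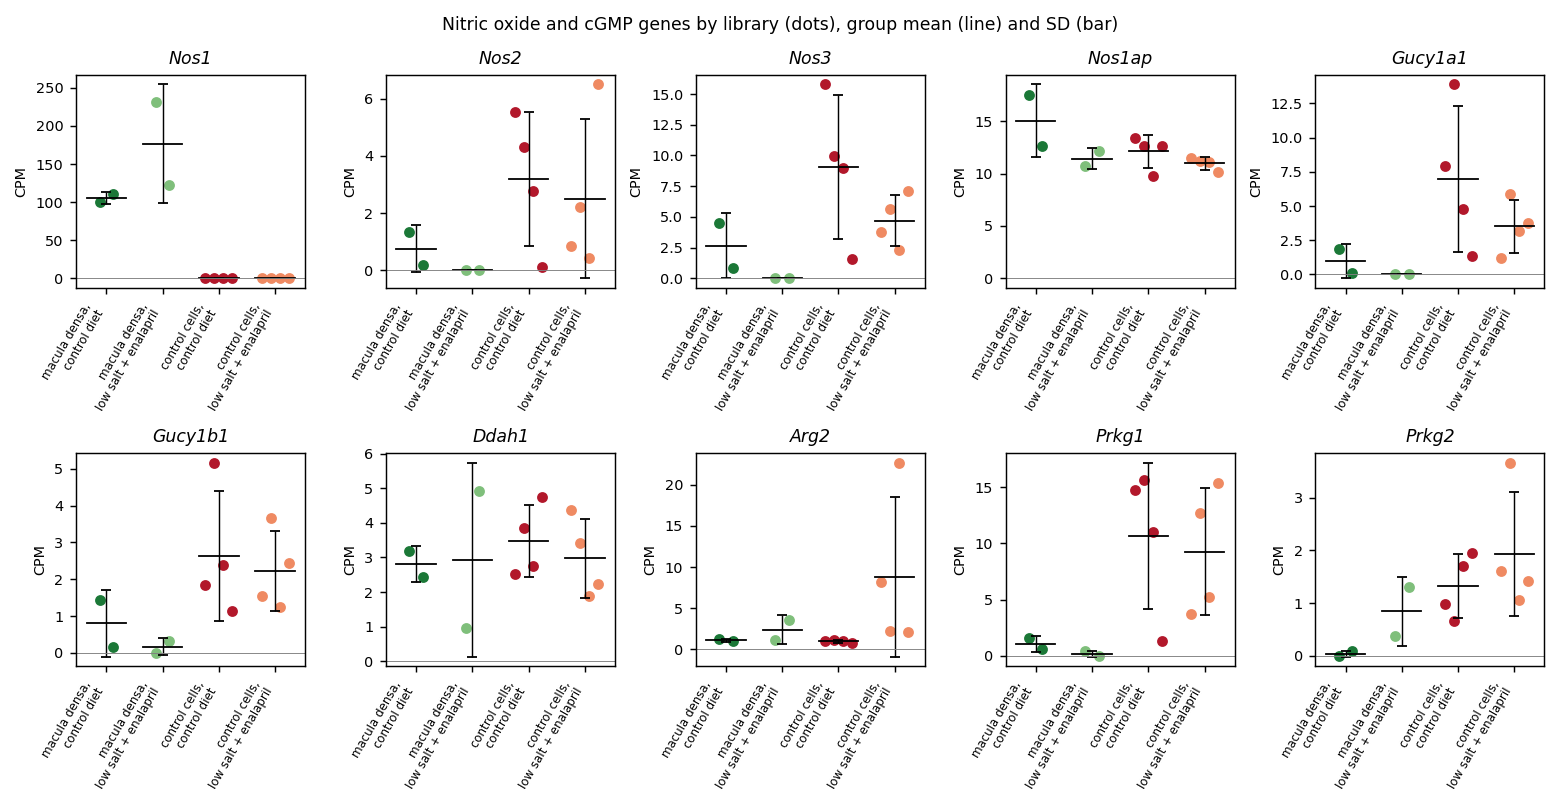
CPM of each of the 10 genes (y axes, each panel with its own scale) in the 12 libraries (dots), by group (x axis), with the group mean as a line and the SD as a bar. Nos1 is high only in the green dots of macula densa cells, and Nos1ap and Ddah1 overlap between the cell populations on both diets. Arg2 reaches 22.7 CPM in 1 control-cell library on low salt with enalapril.

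Counting the members called at an edgeR adjusted p of 0.05, 2 of 10 passed between the cell populations on control diet (Nos1 higher, Prkg2 lower), where 6.57% of the 14181 genes tested passed. On low salt with enalapril 3 of 10 passed (Nos1 higher, Nos3 and Prkg1 lower), where 7.27% of all genes did. In the mean of both diets 1 was higher (Nos1), against 7.53% of all genes, and 6 were lower (Nos2, Nos3, Gucy1a1, Gucy1b1, Prkg1 and Prkg2), against 13.8% of all genes. Nos1 is in each of these counts although it drove the sort, so its calls only check the labels. No other member was called higher in these comparisons. The median log2 fold change of the 10 in that mean was -2.32 with the 3 genes at 0 set to their bound, beside -0.05 over all genes so treated. On low salt with enalapril 5 of 10 members were lower in both macula densa libraries than in every control-cell library (Nos2, Nos3, Gucy1a1, Gucy1b1 and Prkg1), where 19.5% of all genes were. Without control-cell replicate 4 on control diet, 5 members passed on control diet, 4 on low salt with enalapril and 7 in the mean, while 2488 genes in all passed on control diet instead of 931.

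The labels give 4 numbers that each stand on 1 macula densa and 1 control-cell library of the same diet, without saying what the number means. Within these 4 pairs Nos1 was higher in the macula densa library in 4 of 4, by 7.17 to 7.92 on the scale of log2 CPM with a prior count of 2. Nos2, Nos3, Gucy1a1, Gucy1b1, Prkg1 and Prkg2 were lower in 4 of 4, with the smallest gap for Prkg2 (-0.10) and the widest for Prkg1 (-6.09). Nos1ap was higher in 3 of 4, Ddah1 in 1 of 4 and Arg2 in 2 of 4. The share of all genes with the same sign in every pair was not counted. These counts therefore do not say that the pattern is particular to the members.

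The diets were compared within each population to ask how the pathway answers salt restriction with enalapril. In macula densa cells no gene passed the edgeR test (0% of 14181 genes, 1595 at an unadjusted p under 0.05, 93 by DESeq2, and 105 by edgeR with only the groups compared in the fit), and none of the 10 members did (2 at an unadjusted p under 0.05, Nos3 and Prkg2, and 1 by DESeq2, Nos3 with an adjusted p of 0.044). In simulated data this comparison recovered 13.5% of 200 genes changed by a log2 fold change of 2, up or down. Real changes of that size could thus go uncalled. Nos1 was higher on low salt with enalapril in both libraries (232 and 122 CPM against 100 and 111 CPM), a log2 fold change of 0.74 (SE 0.35, edgeR adjusted p = 0.452) that was 0.13 without replicate 1. Nos3 was at least 4.99-fold lower on low salt with enalapril (adjusted p = 0.312), Gucy1a1 at least 1.81-fold and Nos2 at least 1.4-fold lower, all 3 from values above 0 to no count. These bounds rest on macula densa replicate 1 on control diet, without which that for Nos3 was 1.53-fold and Gucy1a1 and Nos2 lay under the floor with no bound. The endothelial sum moved the same way, from 145 and 20.3 to 12.5 and 10.2 CPM, and its part in these values was not tested. Prkg2 held 1 count on control diet and 10 on low salt with enalapril, a ratio of 19.5 with a 95% counting interval of 2.77 to 845 (edgeR adjusted p = 0.298). The ratio was 8.44 when replicate 2 of low salt with enalapril was left out, 10.9 without replicate 1 of control diet, and at least 2.76 without replicate 2 of control diet, which held the single count. Libraries of the 2 diets did not overlap for 7 of 10 members in macula densa cells, where 40.6% of all genes did not overlap with 2 libraries a side.

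In control cells 1 gene in all passed between the diets (0.00705% of genes, 912 at an unadjusted p under 0.05, 74 by DESeq2), and no member did (1 at an unadjusted p under 0.05, Arg2). Arg2 had a mean of 0.970 ± 0.175 CPM on control diet and 8.80 ± 9.69 CPM on low salt with enalapril (SD over 4 libraries), and the log2 fold change was 3.14 (SE 0.71). Its unadjusted p was 0.000824 and its adjusted p 0.347 in edgeR, and its adjusted p was 0.00633 in DESeq2. It was the only member whose 4 libraries on each diet did not overlap, where 4.17% of all genes did not. On low salt with enalapril replicates 1 and 3, high in Arg2, had the lowest podocyte sums (129 and 210 CPM, against 1030 and 874). Their endothelial sums were lowest too (304 and 229 CPM, against 761 and 1050). On control diet replicate 4, with the lowest podocyte sum (42.4 CPM), had the lowest Arg2 level (0.724 CPM). The part of these lists in the result on Arg2 was not tested. In the 8 libraries with a shared number, which leave out the high replicates 1 and 3, the log2 fold change was 0.98. Nos3 (log2 fold change -0.93, SE 0.64, adjusted p = 0.957), Gucy1a1 (-1.05, SE 0.75, adjusted p = 0.957), Prkg1 (-0.21, SE 0.63, adjusted p = 0.997) and Nos1 (0.60, SE 0.44, adjusted p = 0.962) did not pass between the diets.

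The diet effects of the 2 populations were also compared with each other, and their difference passed for no gene (0% of genes, 996 at an unadjusted p under 0.05, 13 by DESeq2) and so for no member (2 at an unadjusted p under 0.05, none by DESeq2). For Nos1 the difference was 0.14 (SE 0.66, adjusted p = 0.985) and for Arg2 -2.02 (SE 1.25, adjusted p = 0.779).

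The other genes of the pathway were taken from a list of 78 names, of which 69 were in the table and 55 had enough counts to be tested. Between the cell populations 4 were called higher and 4 lower on control diet, where 2.69% and 3.87% of all genes were. With low salt and enalapril 3 were called higher and 7 lower, against 3.15% and 4.13% of all genes. Across the mean of both diets, to which the groups below refer, 7 were called higher and 20 lower, against 7.53% and 13.8% of all genes, with a median log2 fold change of -0.45 beside -0.06 over all genes. None passed between the diets or in the difference of diet effects (6, 5 and 3 at an unadjusted p under 0.05 in macula densa cells, in control cells and for the difference, and 0, 2 and 0 by DESeq2). All fold changes below are log2 values of the mean of both diets with their edgeR adjusted p.

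Among the 7 tested genes of arginine supply and methylarginine, Ass1 rose and Slc7a1 fell. Ass1, which with argininosuccinate lyase rebuilds arginine from citrulline, held 22.8 ± 4.78 and 16.3 ± 5.71 CPM in macula densa cells (control diet, then low salt with enalapril, SD, n = 2 each) and 6.94 ± 2.13 and 5.47 ± 2.29 CPM in control cells (SD, n = 4 each), with no overlap (1.64, adjusted p = 0.00145). Proximal tubule, a segment rich in Ass1, had 8 markers that summed to 139 and 235 CPM in macula densa cells on control diet and 44.1 and 102 CPM on low salt with enalapril, against 27.1 to 98.6 CPM in control cells. Of these 8 genes 1 passed as higher in macula densa cells, and their part in the result on Ass1 was not tested. Slc7a1, a carrier that brings arginine into cells, fell (-1.31, adjusted p = 0.00773), whereas Ddah2, the paralog of Ddah1, was at -0.25 (adjusted p = 0.666). Tetrahydrobiopterin is the cofactor without which synthases fail to make nitric oxide. Of its 5 tested genes the entry enzyme Gch1 fell (-2.42, edgeR adjusted p = 0.0359) and the other 4 did not pass. Gch1 held 1.55 ± 0.883 and 1.35 ± 0.539 CPM in control cells and 0.389 ± 0.320 and 0.192 ± 0.271 CPM in macula densa cells. On low salt with enalapril the macula densa libraries held 2 counts of it in all, against 46 in control cells.

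Of 12 tested partners of the synthases, 1 rose and 4 fell. Dlg4, the scaffold that anchors neuronal synthase at membranes, rose (0.82, adjusted p = 0.0223), though libraries of the populations overlapped. Cav1, the caveolar protein that holds the endothelial synthase inactive (-2.64, adjusted p = 0.00859), Nostrin, which directs the traffic of that synthase (-3.43, adjusted p = 0.0291) and the small G protein Rasd1, which Nos1ap couples to the neuronal synthase (-4.04, adjusted p = 0.00947), were among those that fell. Cav1 and Nostrin are themselves abundant in endothelium. Of 4 tested genes of the redox handling of nitric oxide, Cyb5r3, a reductase that keeps haem iron reduced, fell (-0.89, adjusted p = 0.0335).

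All 4 tested cyclases and peptide receptors fell. Npr1, the receptor for atrial natriuretic peptide, held 32.6 ± 20.9 and 23.8 ± 15.4 CPM in control cells and 4.06 ± 1.94 and 0.288 ± 0.407 CPM in macula densa cells (-4.70, adjusted p = 0.00358). Npr2, the receptor for C-type natriuretic peptide (-3.29, adjusted p = 0.0101), and Gucy1a2, the second alpha subunit of the soluble cyclase (-2.39, adjusted p = 0.0408), fell as well. On low salt with enalapril the macula densa libraries held 3 counts of Npr1, 3 of Npr2 and 1 of Gucy1a2 in all. Control cells there held 723, 147 and 40. For Gucy1a2 that was 14.3-fold lower, with a 95% counting interval of 2.42 to 578. On control diet its libraries overlapped, at 0.326 to 1.85 CPM in macula densa cells and 0.827 to 3.85 CPM in control cells. Npr3, the clearance receptor of these peptides, was at 0 in both macula densa libraries on low salt with enalapril, at least 39-fold lower than in control cells there, or 24.7-fold without control-cell replicate 2 on that diet (adjusted p = 0.0291 in the mean of both diets). Npr1 and Npr3 are known from podocytes and endothelium, whose markers moved with them between the populations, and the part of those cells was not tested.

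Of 12 tested cyclic GMP phosphodiesterases and exporters, 3 rose and 6 fell. Pde1b, a calcium and calmodulin-dependent phosphodiesterase, was the clearest gene of the list: 8.17 ± 2.27 and 6.21 ± 2.82 CPM in macula densa cells against 0.732 ± 0.141 and 0.820 ± 0.168 CPM in control cells, with no overlap (3.16, adjusted p = 1.83e-05). Pde10a, which breaks down both cyclic nucleotides, rose less (1.0, adjusted p = 0.00782), and its libraries overlapped between the populations on low salt with enalapril. Pde1c, a relative of Pde1b, fell (-1.91, edgeR adjusted p = 0.00126), as did the cyclic GMP-stimulated Pde2a (-4.41, adjusted p = 0.00373). The cyclic GMP-inhibited Pde3a (-3.20, adjusted p = 0.00337) and Pde3b (-3.03, adjusted p = 0.00124) were lower too. So were the cyclic GMP-specific Pde9a (-1.30, adjusted p = 0.0429) and the exporter Abcc5 (-0.75, adjusted p = 0.0223). Pde5a, the target of sildenafil, did not pass (-1.25, adjusted p = 0.0897). All 8 endothelial, 5 of 6 podocyte and 5 of 6 smooth muscle and renin cell markers fell in the same comparison. In control-cell replicate 4 on control diet, where endothelial and podocyte sums were lowest, Pde2a (2.27 CPM) and Pde3a (4.03 CPM) were the lowest of their group and Pde3b (38.9 CPM) the highest. The part of those cells in these results was not tested.

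Of 11 tested targets of cyclic GMP and its kinases, 2 rose and 3 fell. Itpr1, the calcium release channel of the endoplasmic reticulum, held 209 ± 4.09 and 279 ± 49.8 CPM in macula densa cells against 114 ± 26.1 and 112 ± 8.21 CPM in control cells, with no overlap (1.09, adjusted p = 0.000666). Rgs2, a regulator of G protein signalling that the type I kinase acts on, rose too (1.10, adjusted p = 0.0129). On low salt with enalapril its libraries overlapped between the populations, with up to 27.3 CPM in control cells and 25.7 and 25.9 CPM in macula densa cells. Mrvi1, also named Irag1, which ties the type I kinase to that channel, fell (-2.55, adjusted p = 0.00779), and so did Vasp, an actin regulator and standard substrate of the kinases (-1.11, adjusted p = 0.00527).

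**Figure D4:**
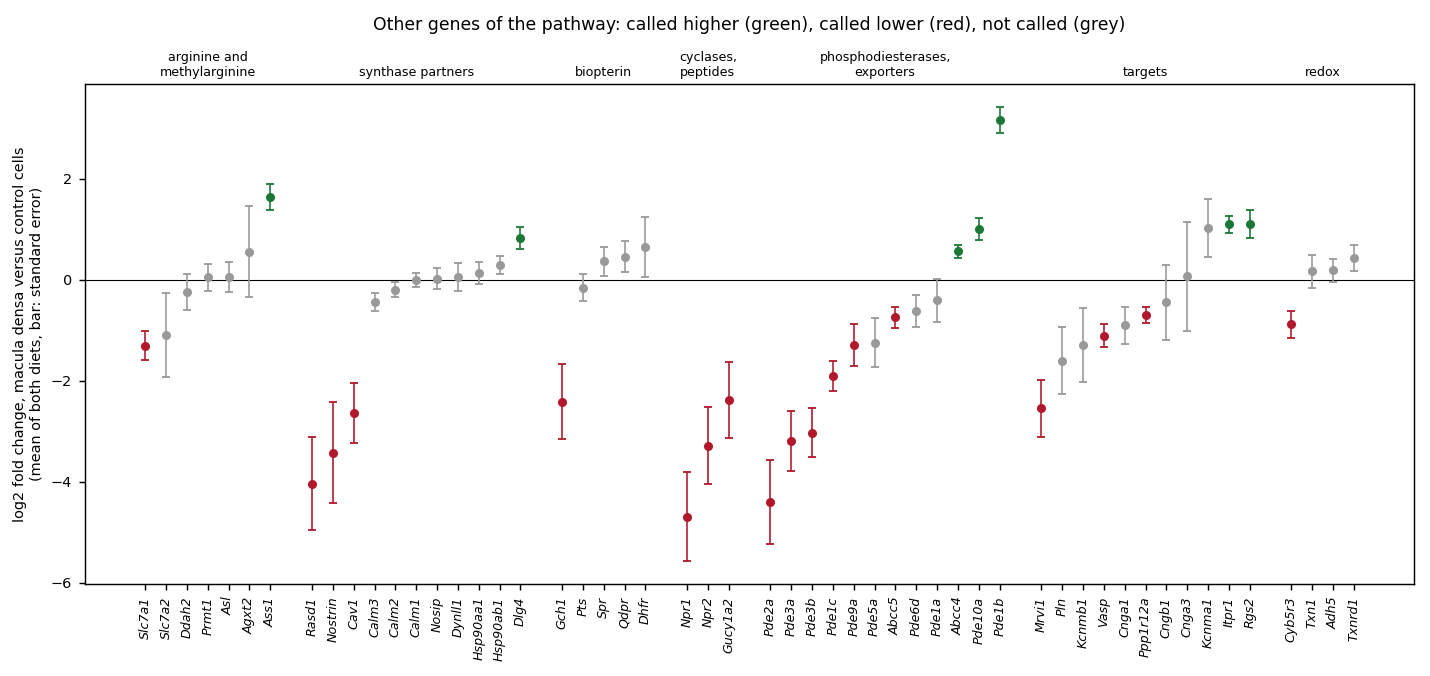
Log2 fold change of macula densa over control cells in the mean of both diets (y axis, bars 1 standard error) for 53 of the 55 tested genes of the pathway list, grouped by role (x axis), with Npr3 left out because it is at 0 in a group and 1 gene that is not reported here. Genes called higher at an adjusted p of 0.05 are green, genes called lower red, and the others grey, and Pde1b at 3.16 and Npr1 at -4.70 mark the ends.

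Likeness was measured for each member as the root mean square (RMS) difference of log2 CPM, centred on the mean of each gene, over the 12 libraries. The 5 genes most like Nos1 were Pappa2 (RMS difference 0.902), a protease of the insulin-like growth factor system, Ptgs2 (1.19), the inducible cyclooxygenase, Frem1 (1.34), Slc6a7 (1.41) and Vash2 (1.44), where the median over all genes was 3.7. In macula densa libraries the means on control diet and on low salt with enalapril were 230 and 579 CPM for Pappa2, 15.1 and 142 CPM for Ptgs2, and 106 and 177 CPM for Nos1. Pappa2 and Ptgs2 were also on the macula densa marker list. The nearest genes to Nos3 were Hyal2 (0.293), Htra1 (0.369) and Daam2 (0.488), and to Nos2 Ppp1r16b (0.467), Fscn1 (0.488) and Unc5b (0.510). Hyal2 was at 0 in both macula densa libraries on low salt with enalapril, as Nos3 was.

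Gucy1a1 lay nearest to Cd248 (RMS difference 0.420), a pericyte and fibroblast surface protein, Kirrel (0.492) and Eln (0.493), the elastin gene. Gucy1b1 lay nearest to Fbn1 (0.380), the fibrillin gene, Plxna4 (0.438) and Arvcf (0.480). Prkg1 lay nearest to Slco2a1 (0.278), a prostaglandin carrier, Cbfa2t3 (0.312) and Kirrel (0.312), a slit diaphragm protein of podocytes. Each of these genes had a higher mean in both control-cell groups than in either macula densa group. Nos1ap lay nearest to Taf1 (0.140), Nsfl1c (0.143) and Fbxo3 (0.148), Ddah1 to Stk36 (0.306) and Ccdc34 (0.312), and Prkg2 to Trpv6 (0.520), Hes1 (0.536) and Prlr (0.542). Arg2 lay nearest to Krt20 (0.524), a keratin, Acot1 (0.571) and Fut2 (0.574), and the 2 control-cell libraries that were high for Arg2 on low salt with enalapril, replicates 1 and 3, were also high for Acot1 (16.5 and 18.3 CPM).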

How the data were processed

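The authors deposited 1 table of expected counts per gene for 12 libraries. STAR 2.61, Partek and mm10 are named in the submitters' processing notes, while the counting tool, strand setting and annotation are not given in the sources used here. Of its values 16.1% were not whole, and they were rounded before testing. The smallest sum of a gene over the libraries was 10, and 0 columns lacked a sample. Genes were kept by filterByExpr of edgeR 4.0.16 in R 4.3.3 (count minimum 10, total minimum 15), which left 14181. They were scaled with TMM and tested in 1 quasi-likelihood fit with a coefficient per group over all 12 libraries, with Benjamini-Hochberg adjustment at 0.05. Standard errors were derived from the F statistic. DESeq2 1.42.0 was an alternative, and the fit was tested on simulated data with 200 genes changed by the fixed size given above. It recovered 73.5% of them between the populations in the mean of both diets. Between the diets it recovered 13.5% in macula densa cells and 63.5% in control cells. Lengths came from GENCODE M21. A chi-square test of counts found a difference between every pair of replicates.

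Named were the 10 members, the 25 largest changes among called pathway genes, and the 3 genes most like each member (5 for Nos1), of which 2 genes are not reported here by name. The members, lists and rules were chosen with earlier results of these data known. Each of the 4 numbers shared by a macula densa and a control-cell library was checked for pairing and not used as a pairing.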

Additional observations from a re-analysis of the deposited data

Results flagged for a closer look

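Prkg1 in control cells on control diet had 1 library far from the others of its group. Replicate 4 stood at 0.65 on the log2 CPM scale with a prior count of 2, and the other 3 libraries at 3.48 to 3.98. The gap made up 0.85 of the range of the group, above Dixon's 95% critical value for 4 libraries. Of 20 groups of 4 libraries checked (10 genes, 2 control-cell groups), this was the only one, and chance gives about 1. The same library held an endothelial marker sum of 44.2 CPM against 694 to 1290 CPM and a podocyte marker sum of 42.4 CPM against 657 to 1280 CPM, whose part in the Prkg1 value was not tested.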

How the results depend on the processing

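Over the alternatives, 1148 of 1242 values of the 10 members kept their direction and their side of the threshold, 34 lost and 24 gained a call, and 36 changed sign, the latter all in values that had not passed. Nos1, Nos3, Prkg1 and Prkg2 kept their calls at 0.05 in the mean of both diets under every alternative that tested them, and Nos3, Prkg1 and Prkg2 had adjusted p up to 0.0467, 0.0276 and 0.0456. Members called on control diet (2) became 4 with DESeq2 and 1 with a filter at a mean of 5 CPM, with only the groups compared or at an adjusted p of 0.01, and pathway genes (8) became 20, 5 with only the groups compared, and 1 at 0.01. On low salt with enalapril members (3) became 6 with DESeq2 and 1 at 0.01, and pathway genes (10) became 20 and 2. In the mean of both diets members (7) became 3 with the filter and 3 at 0.01, and pathway genes (27) became 15 at 0.01. The filter left Nos2, Gucy1a1, Gucy1b1 and Prkg2 out of the test because their mean levels were under it. Its lower counts of members therefore reflect fewer genes tested and not calls that failed. Between the diets DESeq2 called 1 member in each population and 2 pathway genes in control cells, where edgeR called 0. Leaving out 1 library gave 1 to 5 members and 1 to 18 pathway genes on control diet, 1 to 4 and 2 to 17 on low salt with enalapril, and 5 to 7 and 16 to 28 in the mean. The highest counts were without control-cell replicate 4 on control diet. The lowest counts of pathway genes were without macula densa replicate 2 of control diet, and for the other comparisons replicate 2 of low salt with enalapril. Genes of all kinds called ranged from 122 to 2488 on control diet, 197 to 1893 on low salt with enalapril and 1681 to 3973 in the mean (931, 1031 and 3032 with all libraries), and DESeq2 called 2000 and 1921 on the first 2. Between the diets in macula densa cells edgeR called 105 genes with only the groups compared and 22 with the 8 libraries that share a number, against 0. The causes were not tested.

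The shared numbers were checked for pairing by the correlation of deviations from group means, which was 0.227, -0.018, 0.076 and -0.037 for the 4 pairs of the descriptions. With 2 macula densa libraries per group, their deviations are mirror images, so this check cannot decide whether the pairs share an origin. With the description number as a replicate block, 4 members and 20 pathway genes were called on control diet and 6 and 20 on low salt with enalapril. With the replicate number of the titles as a block these were 1 and 4, and 1 and 4. The title block ended the calls of Nos2 (adjusted p = 0.119) and Gucy1b1 (0.0642) in the mean, Nos3 (0.078) and Prkg1 (0.0915) on low salt with enalapril and Prkg2 (0.0818) on control diet, the last of which the description block ended too (0.0643). When the fit held just the 8 libraries of those pairs, an alternative chosen after seeing the data, they were 4 and 20, and 5 and 20. In values that had not passed, signs changed as follows. With those 8 libraries Arg2 gave 0.15 on low salt with enalapril, 0.08 in the mean and 0.14 in the difference of diet effects (0.12, 0.07 and 0.10 with the description block), Ddah1 gave 0.13 on low salt with enalapril, and Nos2 and Prkg1 gave 0.36 and 0.09 between diets in control cells. With library totals alone Ddah1 gave 0.19 on low salt with enalapril and 0.03 in the mean. With no filter, and likewise with the title block, Nos1ap gave -0.02 on low salt with enalapril and Ddah1 -0.04 between diets in macula densa cells. With Nos1ap and Gm7694 summed, also chosen after seeing the data, Nos1ap gave 0.03 in the difference. Leaving out 1 library gave ranges across 0 for Nos1 in the difference (-0.49 to 0.46), Nos2 between diets in control cells (-1.47 to 0.10), Nos1ap on low salt with enalapril (-0.07 to 0.09), Gucy1b1 between diets (-5.85 to 0.04 in macula densa, -0.57 to 0.31 in control cells) and in the difference (-5.59 to 0.31), Ddah1 on low salt with enalapril (-1.68 to 0.64), in the mean (-0.98 to 0.19), between diets in macula densa cells (-1.59 to 0.74) and in the difference (-1.41 to 0.92), and Prkg1 between diets in control cells (-0.58 to 0.07). Where a macula densa group was left with 1 library, its spread was taken from the other groups. With members at 0 to 2 counts in macula densa libraries on low salt with enalapril, differences under the floor of 3 counts were not detectable.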
